A study of Mus musculus with 10 samples.

Results

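The GIMAP genes (GTPases of immunity-associated proteins) were followed in mouse bone marrow of mice that drank α-ketoglutarate (α-KG). The family was taken as the rows of the expression table with the symbols Gimap1, Gimap3, Gimap4, Gimap5, Gimap6, Gimap7, Gimap8 and Gimap9, which are 8 of 55367 genes in the table. All 8 were also among the 15126 genes that passed the filter on low counts. The genes were selected on the fold change between these same α-KG and water libraries, so the difference between the groups in these 8 genes is described below and not tested.

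Total RNA of bone marrow cells was sequenced after removal of ribosomal RNA by RNase H, with 10 libraries in all. In the α-KG group (5 libraries, called α-KG 1 to 5 here), mice were given 1% α-KG, an intermediate of the tricarboxylic acid cycle, in their drinking water. In the water group (5 libraries, water 1 to 5), mice were given regular water. The sources used here give no strain, genotype, sex, age or treatment length, and they do not spell out the label BMMC for the cell type. Nothing in the labels ties each library to its own animal, so the p-values below measure the spread between libraries, which may be technical.

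GIMAP proteins are small GTPases with an AIG1-type G domain, anchored to or associated with intracellular membranes. They are known chiefly from lymphocytes, where several members govern the survival of T and B cells, and they are also made in other blood cells and in endothelium. Mice and rats without functional GIMAP5 lose most of their peripheral T cells, and mouse lymphocytes that lack GIMAP1 do not persist as mature cells. In mice the genes stand side by side. In the GENCODE M21 annotation of GRCm38 the 8 genes spanned 123618 bp, from Gimap8 at its start to Gimap3 at its end (chr6:48647234-48770851), with 6 genes on the plus strand and 2, Gimap6 and Gimap3, on the minus strand.

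The promoters of 4 members are shown because they span the family's range: Gimap4 and Gimap7 stood past the threshold of the genome-wide test, Gimap1 did not, and Gimap6 had the highest level. Each window runs from 250 bases before to 50 bases after the RefSeq start (GRCm38.p6), written 5′ to 3′ on the strand of the gene. The windows are chr6:48684328-48684627 (plus strand) for Gimap4, chr6:48718371-48718670 (plus) for Gimap7, chr6:48738797-48739096 (plus) for Gimap1 and chr6:48708195-48708494 (minus) for Gimap6. Capitals mark matches on either strand to motif cores of 5 transcription factor families. These were AGGAAG for ETS factors, TGTGGT for RUNX factors, CTTTGA for TCF and LEF factors, CCACACCC for KLF factors and AGATAA for GATA factors. No matches overlap in the windows shown. A match on the opposite strand is printed as its reverse complement.
Gimap4: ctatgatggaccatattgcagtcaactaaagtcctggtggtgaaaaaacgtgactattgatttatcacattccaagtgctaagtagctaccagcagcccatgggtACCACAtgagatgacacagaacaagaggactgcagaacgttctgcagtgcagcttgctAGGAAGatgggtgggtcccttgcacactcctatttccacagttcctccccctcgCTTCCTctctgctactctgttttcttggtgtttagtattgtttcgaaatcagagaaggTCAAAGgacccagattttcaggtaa
Gimap7: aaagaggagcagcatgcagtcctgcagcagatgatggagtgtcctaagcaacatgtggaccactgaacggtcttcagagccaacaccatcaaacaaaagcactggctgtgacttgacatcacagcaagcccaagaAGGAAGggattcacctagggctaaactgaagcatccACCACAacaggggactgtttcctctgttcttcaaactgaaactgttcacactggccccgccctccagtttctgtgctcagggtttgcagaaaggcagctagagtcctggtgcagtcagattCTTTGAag
Gimap1: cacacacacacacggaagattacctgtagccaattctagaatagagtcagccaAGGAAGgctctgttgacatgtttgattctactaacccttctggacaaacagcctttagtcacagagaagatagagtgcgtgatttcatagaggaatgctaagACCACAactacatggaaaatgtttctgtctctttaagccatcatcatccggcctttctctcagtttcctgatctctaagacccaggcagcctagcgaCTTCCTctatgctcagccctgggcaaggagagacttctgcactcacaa
Gimap6: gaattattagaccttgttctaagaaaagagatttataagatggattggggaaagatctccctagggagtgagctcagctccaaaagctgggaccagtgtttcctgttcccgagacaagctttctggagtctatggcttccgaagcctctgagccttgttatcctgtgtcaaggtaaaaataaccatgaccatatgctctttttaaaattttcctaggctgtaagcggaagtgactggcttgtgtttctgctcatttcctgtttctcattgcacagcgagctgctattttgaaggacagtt

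The family has 9 RefSeq windows, since Gimap8 has 2 starts. AGGAAG was found in 7 of the 9 windows, against 35.4% of the 32851 promoter windows searched. Those windows, called all windows below, leave out a whole chromosome and any window that was not of full length. TGTGGT was found in 3 of the 9 windows, those of Gimap4, Gimap7 and Gimap1, against 16.8% of all windows. CTTTGA was found in 2 of the 9, those of Gimap4 and Gimap7, against 16% of all windows. CCACACCC (3.56% of all windows) and AGATAA (11.2% of all windows) were found in 0 of the 9. In Gimap4 the AGGAAG matches lay 87 to 82 and 33 to 28 bases before the start, and in Gimap1 they lay 197 to 192 bases before it and at bases 3 to 8. The Gimap6 window held none of these exact strings. A single string was searched per factor family, so other sites of the same families were not looked for. The matches are a description of these windows, and no binding was measured.

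Library totals ran from 14291364 to 22490118 expected counts, the authors' estimated counts per gene. The share of counts in the noncoding RNA Rn7s was 24.0% to 31.0% in α-KG libraries and 7.56% to 24.2% in water libraries. Ptprc, which encodes the pan-leukocyte antigen CD45, had 181 to 297 CPM (counts per 1e+06, TMM-scaled) in α-KG libraries and 131 to 214 CPM in water libraries, and the 13 neutrophil markers and 11 erythroid markers were also present, as in bone marrow. Xist was at 258 to 525 CPM and the Y-linked Ddx3y at 15.1 to 28 CPM in the α-KG libraries, with 278 to 785 CPM of Xist and 13.5 to 24.9 CPM of Ddx3y in the water libraries, so every library held transcripts of both. Of the 15126 genes tested, edgeR called 2.73% changed at an adjusted p under 0.05, 361 genes (2.39%) higher and 52 (0.344%) lower with α-KG, and 27.8% had an unadjusted p under 0.05. DESeq2, which gave an adjusted p to 15951 genes, called 969 higher and 688 lower. The number of edgeR calls depended on single libraries. Without α-KG 4, or without water 1, 2 or 4, edgeR called 0 genes in the whole table, with 3232 to 3672 genes at an unadjusted p under 0.05. Without α-KG 2 it called 2683 genes, without water 3 it called 632 and without α-KG 1 it called 139.

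The summed GIMAP signal was higher with α-KG in 3 of the 5 libraries and close to the water libraries in the rest. The 8 genes together had 95.4, 24.6, 59.5, 61.9 and 31.9 CPM in α-KG 1 to 5, against 26.2, 24.7, 38.3, 22.3 and 21.1 CPM in water 1 to 5. The means were 54.6 ± 28.1 CPM with α-KG and 26.5 ± 6.87 CPM with water (SD, n = 5 each), a ratio of 2.06. α-KG 1 stood highest, and without it the ratio was 1.68. α-KG 2 lay within the range of the water libraries, and α-KG 5 lay between water 3 and the other water libraries. In these bulk libraries, more cells that express the family and more RNA per cell cannot be told apart.

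All 8 fitted log2 fold changes were above 0, with a median of 1.06, beside a median of 0.02 and 51.7% above 0 over all genes tested. Gimap4 and Gimap7 were past the threshold, 2 of 8, where 2.39% of all genes were called higher, and DESeq2 called 3 of 8, where it called 6.07% of all genes higher. This count adds nothing to how the genes were picked. The groups overlapped in each of the 8 genes (5.65% of all genes had groups that did not overlap, 3.64% with every α-KG library above every water library). α-KG 1 was the highest of the 10 libraries in 8 of 8 members (level with α-KG 4 to 3 digits in Gimap9) and in 17.8% of all genes, and α-KG 2 was the lowest α-KG library in 8 of 8 members and in 23.1% of all genes. Among water libraries, water 3 was the highest in 5 of 8 members and in 25.9% of all genes.

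**Figure D1:**
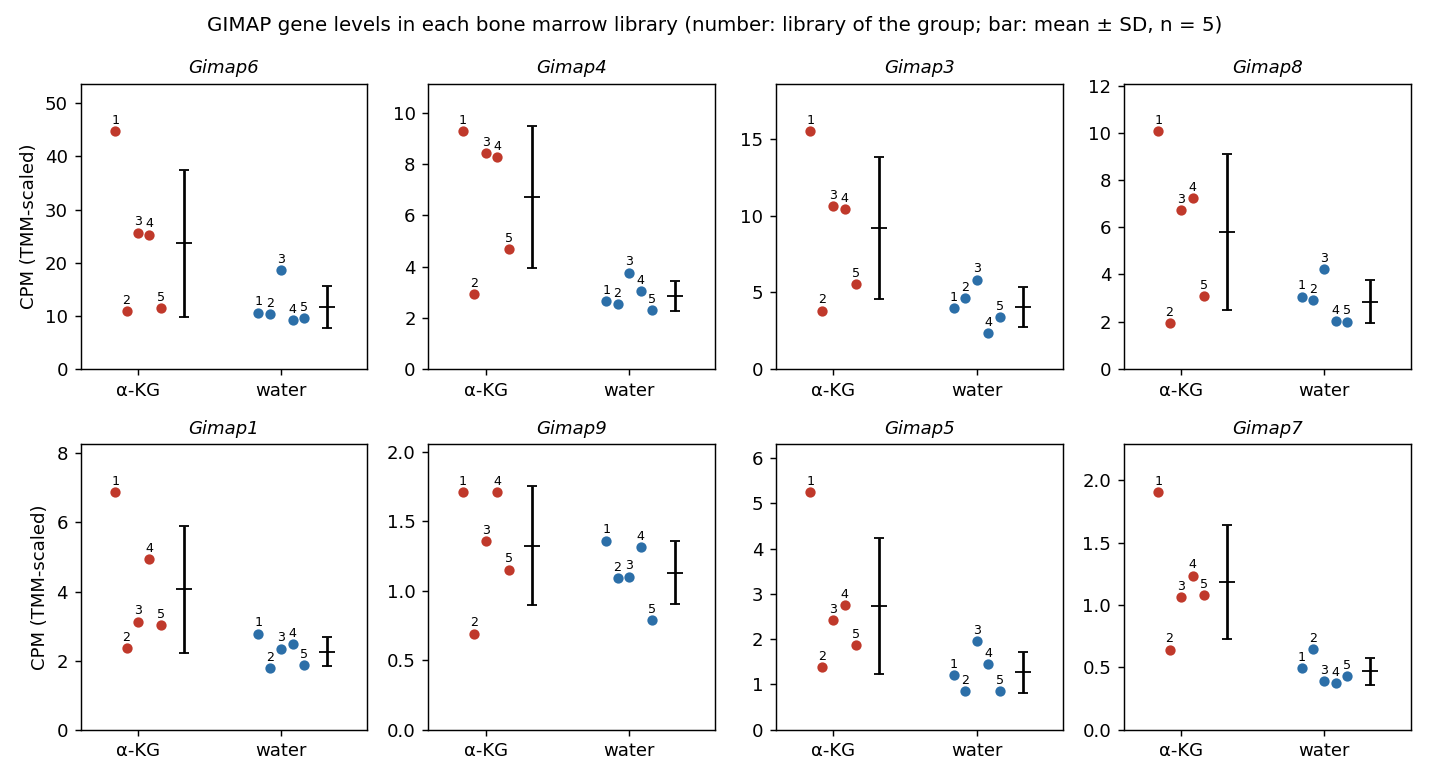
Levels of the 8 GIMAP genes in TMM-scaled CPM, with α-KG libraries (red, left) and water libraries (blue, right) in each panel, each point a library with its number and each bar the mean ± SD of 5. α-KG 1 is the top point in all 8 panels, α-KG 2 is the lowest red point in all 8, and the groups overlap in every panel.

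Gimap5 and Gimap1, for which the loss of lymphocytes was described above, had modest levels. A link between that trait and level was not tested. Gimap5 (ENSMUSG00000043505.8, chr6:48746197-48754210, plus strand), which acts at lysosomal membranes and keeps peripheral T cells alive, had 5.25, 1.38, 2.42, 2.76 and 1.87 CPM in α-KG 1 to 5, against 1.21, 0.844, 1.95, 1.45 and 0.858 CPM in water 1 to 5. α-KG 1, 3 and 4 were above every water library, and α-KG 2 and 5 lay within the water range. Its means were 2.74 ± 1.5 CPM with α-KG and 1.26 ± 0.463 CPM with water, and the log2 fold change was 1.11 ± 0.36 (SE, n = 5 per group), or 0.69 without α-KG 1.

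Gimap1 (ENSMUSG00000090019.5, chr6:48739054-48743795, plus strand), which mature mouse T and B cells need to survive, had 6.88, 2.37, 3.13, 4.94 and 3.02 CPM in α-KG 1 to 5, against 2.78, 1.79, 2.34, 2.48 and 1.86 CPM in water 1 to 5. Of the α-KG libraries, 4 were above every water library and α-KG 2 was not. Its means were 4.07 ± 1.84 CPM with α-KG and 2.25 ± 0.423 CPM with water, and the log2 fold change was 0.85 ± 0.28 (SE, n = 5 per group), or 0.54 without α-KG 1. Gimap1os, a noncoding transcript on the opposite strand, overlaps 36.0% of the Gimap1 exon bases, and the sources used here do not say whether counting used the strand. Gimap1os itself had 1 to 18 counts a library, 0.504 ± 0.285 CPM with α-KG and 0.184 ± 0.0716 CPM with water, and was too low to be tested.

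Gimap3 (ENSMUSG00000039264.9, chr6:48764464-48770851, minus strand), a close relative of Gimap5 known in mice for its influence on the segregation of mitochondrial DNA, had 15.5, 3.80, 10.6, 10.5 and 5.54 CPM in α-KG 1 to 5, against 3.99, 4.62, 5.83, 2.34 and 3.36 CPM in water 1 to 5. α-KG 1, 3 and 4 stood above every water library, and α-KG 2 and 5 lay within the water range. Its means were 9.19 ± 4.64 CPM with α-KG and 4.03 ± 1.31 CPM with water, with a log2 fold change of 1.18 ± 0.36 (SE, n = 5 per group). Gimap3 and Gimap5 are the only pair of members that share stretches of 50 identical bases: 190 of them, 7.52% of those in Gimap3 and 4.53% of those in Gimap5. Reads from these stretches could have been split between both genes, so the sum of the pair was also taken, and it was 11.9 ± 6.06 CPM with α-KG and 5.29 ± 1.55 CPM with water.

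Gimap6 (ENSMUSG00000047867.11, chr6:48701582-48708225, minus strand), whose protein binds the autophagy protein GABARAPL2, gave the most counts of the family. It had 44.8, 10.9, 25.7, 25.3 and 11.4 CPM in α-KG 1 to 5, against 10.6, 10.3, 18.7, 9.23 and 9.51 CPM in water 1 to 5. α-KG 1, 3 and 4 stood above every water library, and α-KG 2 and 5 sat below water 3, which was itself far above the other 4 water libraries. The means were 23.6 ± 13.8 CPM with α-KG and 11.7 ± 3.95 CPM with water, with a log2 fold change of 1.02 ± 0.37 (SE, n = 5 per group). Without α-KG 1 that value was 0.63.

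Gimap4 (ENSMUSG00000054435.16, chr6:48684549-48692060, plus strand), which in rodent T cells acts on the execution of programmed cell death, had 9.29, 2.91, 8.44, 8.27 and 4.68 CPM in α-KG 1 to 5, against 2.66, 2.53, 3.77, 3.05 and 2.29 CPM in water 1 to 5. Every α-KG library other than α-KG 2 was above every water library. Its means were 6.72 ± 2.77 CPM with α-KG and 2.86 ± 0.577 CPM with water, with a log2 fold change of 1.22 ± 0.29 (SE, n = 5 per group).

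Gimap7 (ENSMUSG00000043931.10, chr6:48718621-48724636, plus strand), whose human protein stimulates GTP hydrolysis by GIMAP2, had 1.91, 0.642, 1.06, 1.24 and 1.08 CPM in α-KG 1 to 5, against 0.495, 0.645, 0.391, 0.375 and 0.429 CPM in water 1 to 5. α-KG 2 fell just short of water 2, and the other 4 α-KG libraries were above every water library. Its means were 1.18 ± 0.459 CPM with α-KG and 0.467 ± 0.110 CPM with water. The log2 fold change was the largest of the family at 1.35 ± 0.33 (SE, n = 5 per group), from 6 to 49 counts a library, so that counting error weighs most here.

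Gimap8 (ENSMUSG00000064262.7, chr6:48647234-48660875, plus strand), which is unusual in carrying repeated G domains, had 10.1, 1.93, 6.73, 7.22 and 3.09 CPM in α-KG 1 to 5, against 3.06, 2.93, 4.23, 2.02 and 2.0 CPM in water 1 to 5. α-KG 1, 3 and 4 stood above every water library, α-KG 2 was the lowest of all 10 libraries and α-KG 5 lay within the water range. Its means were 5.81 ± 3.30 CPM with α-KG and 2.85 ± 0.917 CPM with water, with a log2 fold change of 1.02 ± 0.39 (SE, n = 5 per group).

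Gimap9 (ENSMUSG00000051124.6, chr6:48676129-48679114, plus strand) differed least between the groups. It had 1.71, 0.691, 1.36, 1.71 and 1.15 CPM in α-KG 1 to 5, against 1.36, 1.09, 1.10, 1.31 and 0.786 CPM in water 1 to 5. Its means of 1.32 ± 0.427 CPM with α-KG and 1.13 ± 0.227 CPM with water lay within 1 SD of each other, and the log2 fold change was 0.20 ± 0.28 (SE, n = 5 per group). Of the exon-length-scaled signal of the family, Gimap9 made up 4.63% ± 1.09 with α-KG and 7.75% ± 1.96 with water (SD, n = 5 each). Gimap6 made up 34.9% ± 4.19 with α-KG and 36.0% ± 3.48 with water, so its part of the family was nearly alike in both groups.

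**Figure D2:**
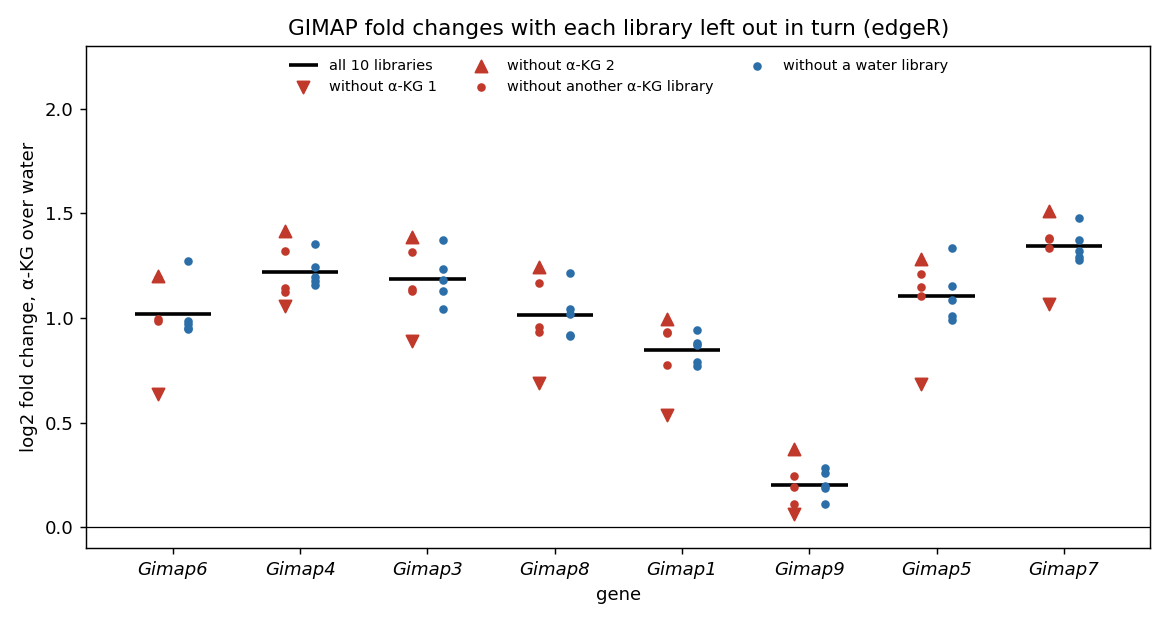
Log2 fold changes (α-KG over water, edgeR) of the 8 genes with all 10 libraries (black line) and with each library left out in turn (points). Points without α-KG 1 (downward triangles) lie below the line in all 8 genes and points without α-KG 2 (upward triangles) lie above it, and every point is above 0.

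Leaving out α-KG 1 lowered all 8 log2 fold changes, to between 0.06 (Gimap9) and 1.07 (Gimap7), with a median of 0.69. Without α-KG 1, 0 of 8 members passed the threshold in edgeR, where 0.77% of all genes were called higher, and 5 of 8 had an unadjusted p under 0.05, as did 21.4% of all genes. Without α-KG 2, 7 of 8 passed, where 10.5% of all genes were called higher, and 3 of 8 had groups that did not overlap, which held for 10.5% of all genes. Gimap9 was the member that did not pass there. All 8 values stayed above 0 whichever library was left out.

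The members varied together over the α-KG libraries, and for some of them the correlation was weak or absent over the water libraries, where the family varied less. With the group means removed, the correlation of each member with the mean of the other 7 (Pearson, log2 CPM, 10 libraries) ran from 0.72 for Gimap7 to 0.97 for Gimap8. The family mean varied within groups by an SD of 0.51 on the log2 scale, and each member varied around that mean by an SD of 0.18 to 0.33, against 0.40 to 0.75 for the members' own log2 CPM. Within the 5 α-KG libraries the correlation ran from 0.91 to 0.99. Within the 5 water libraries it was -0.23 for Gimap7, 0.34 for Gimap9, 0.36 for Gimap1 and 0.56 for Gimap3, and 0.63 to 0.91 for the other 4. The SD of the family mean was 0.68 over α-KG libraries and 0.24 over water libraries on the log2 scale. In water libraries Gimap7 had 6 to 16 counts and Gimap9 had 11 to 44. Whether the narrower range and low counts account for the lower values in water libraries was not tested. The points share library depth and scaling.

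**Figure D3:**
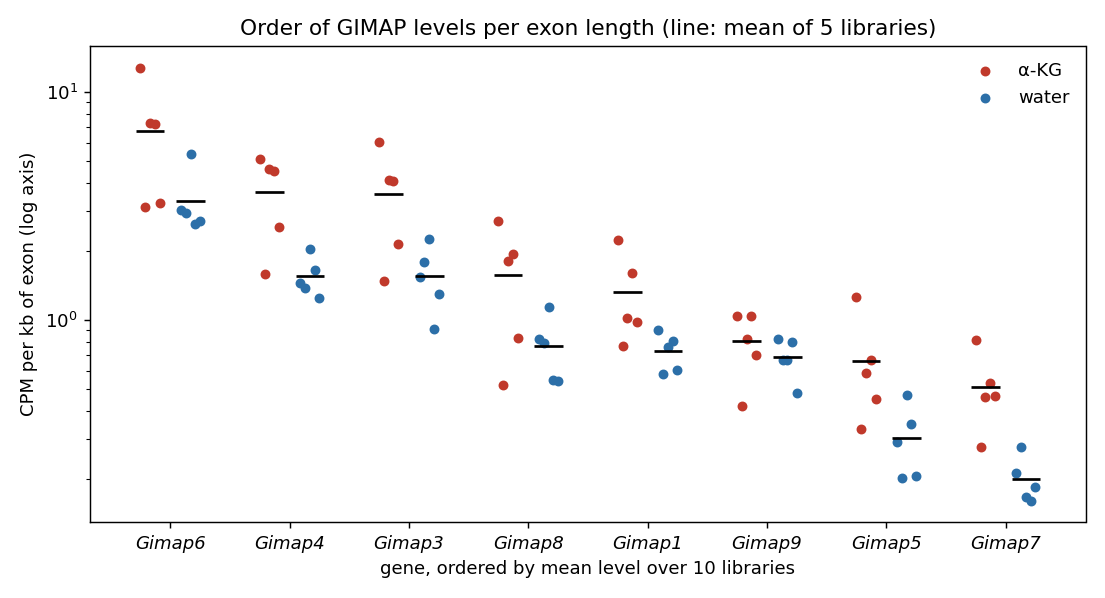
Level of each member in CPM per kb of exon (log axis), ordered by the mean over 10 libraries, with α-KG libraries in red at the left of each gene, water libraries in blue at the right and lines at group means. Gimap6 lies highest and Gimap7 lowest, a 14.2-fold range of means, while Gimap4 and Gimap3 overlap, as do Gimap8 and Gimap1.

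Levels of different members were compared per kb of annotated exon over all 10 libraries. Gimap6 had 5.04 ± 3.28 CPM per kb, Gimap4 2.61 ± 1.51 and Gimap3 2.56 ± 1.63 CPM per kb (SD, n = 10). Gimap8 followed with 1.17 ± 0.747 and Gimap1 with 1.03 ± 0.515 CPM per kb. The lowest were Gimap9 at 0.748 ± 0.206, Gimap5 at 0.482 ± 0.314 and Gimap7 at 0.355 ± 0.212 CPM per kb. Neighbours in this order were compared within libraries by an exact two-sided sign-flip permutation test, adjusted over the 7 pairs.

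Gimap6 was above Gimap4 in 10 of 10 libraries, by 0.94 on the log2 scale (exact permutation test, adjusted p = 0.00684), and Gimap3 was above Gimap8 in 10 of 10 libraries, by 1.13 (exact permutation test, adjusted p = 0.00684). Gimap1 was above Gimap9 in 9 of 10 (0.39, exact permutation test, adjusted p = 0.0205), Gimap9 above Gimap5 in 9 of 10 (0.80, exact permutation test, adjusted p = 0.00911) and Gimap5 above Gimap7 in 8 of 10 (0.43, exact permutation test, adjusted p = 0.0438). Gimap4 and Gimap3 did not differ beyond their spread (5 of 10 libraries each way, adjusted p = 0.666 in the exact permutation test), nor did Gimap8 and Gimap1 (5 of 10, adjusted p = 0.666 in the exact permutation test). The order pools both groups, and Gimap1 against Gimap9 shows what this hides: their means were 1.32 and 0.807 CPM per kb with α-KG but 0.733 and 0.689 CPM per kb with water. The order also depends on the length used: with coding length it ran Gimap6, Gimap3, Gimap4, Gimap1, Gimap5, Gimap8, Gimap9 and Gimap7.

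Of the genes on either side of the cluster, Tmem176b rose and 3 others that could be tested did not pass. Repin1, a zinc-finger gene before Gimap8, had a log2 fold change of 0.32 ± 0.25 (SE, n = 5 per group, edgeR adjusted p = 0.401) and Zfp775 had 0.85 ± 0.46 (edgeR adjusted p = 0.243). Beyond Gimap3, Tmem176b, a membrane protein gene known from dendritic cells and macrophages, had 11.1, 7.16, 8.32, 13.4 and 13.1 CPM in α-KG 1 to 5, against 3.99, 5.96, 7.82, 4.88 and 4.72 CPM in water 1 to 5. It rose, with a log2 fold change of 0.95 ± 0.22 (SE, edgeR adjusted p = 0.0445). Its highest libraries were α-KG 4 and 5, whereas α-KG 1 led in every GIMAP gene and α-KG 5 was the second lowest α-KG library in 7 of them.

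Its neighbour Tmem176a had 5.29 ± 0.733 CPM with α-KG and 3.47 ± 0.653 CPM with water (SD, n = 5 each), with groups that did not overlap and a log2 fold change of 0.61 ± 0.17 (edgeR adjusted p = 0.0661). Of the 4 flanking genes tested, 1 rose (2.39% of all genes were called higher). Tmem176b kept its call in 2 of the 10 fits that leave out a library and missed it under DESeq2's size factors in edgeR (adjusted p = 0.0510), protein-coding scaling (0.0520) and voom (0.0571), and without α-KG 1 its log2 fold change was 0.91. The 5 other genes annotated inside the cluster had too few counts to be tested.

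**Figure D4:**
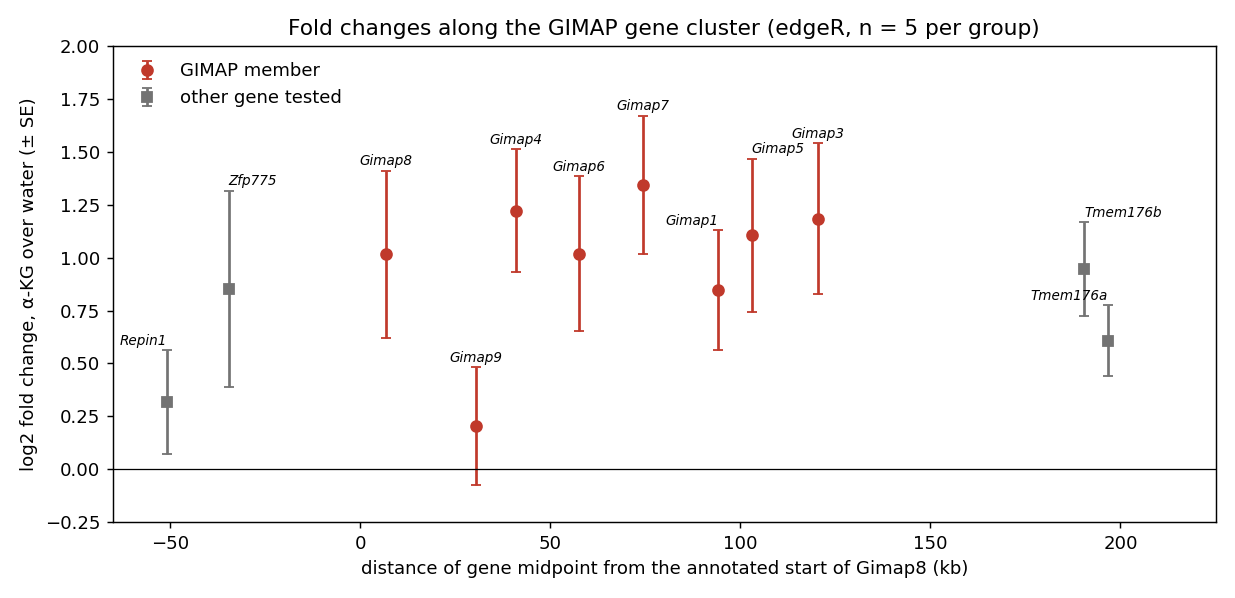
Log2 fold changes (α-KG over water, edgeR, ± SE, n = 5 per group) of the 8 GIMAP genes and the 4 flanking genes tested, against the distance of each gene's midpoint from the start of Gimap8 in kb. Values inside the cluster run from 0.20 (Gimap9) to 1.35 (Gimap7), and those outside from 0.32 (Repin1) to 0.95 (Tmem176b).

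T cell genes, the usual company of the GIMAP family, were mostly higher with α-KG but few passed the test. Of 19 tested T cell receptor, coreceptor and signalling genes, 19 had a log2 fold change above 0 (51.7% of all genes), with a median of 0.75. An unadjusted p under 0.05 was found for 13 (27.8% of all genes), and DESeq2 called 3 (6.07% of all genes higher). In edgeR 1 rose (2.39% of all genes were called higher). That gene was Cd3e, a subunit of the T cell receptor complex, with 3.07, 1.58, 2.95, 3.23 and 2.59 CPM in α-KG 1 to 5, against 0.742, 1.54, 1.35, 1.08 and 1.5 CPM in water 1 to 5. The groups did not overlap, and the log2 fold change was 1.12 ± 0.26 (SE, n = 5 per group, edgeR adjusted p = 0.0445).

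Among the rest, Thy1 had a log2 fold change of 1.16 ± 0.29 (edgeR adjusted p = 0.0566), Cd8b1 2.20 ± 0.67 (adjusted p = 0.0813), Cd8a 1.01 ± 0.33 (adjusted p = 0.0915) and Cd4 0.33 (adjusted p = 0.345). Of 12 T cell transcription factor and homing genes, 11 were above 0 (51.7% of all genes) with a median of 0.52, and 1 rose (2.39% of all genes were called higher). It was Bcl11b, which sets the T cell lineage, by 1.36 ± 0.32 (edgeR adjusted p = 0.0456). Bcl11b had 6.11, 2.17, 4.55, 5.13 and 2.59 CPM in α-KG 1 to 5, against 1.36, 1.04, 2.52, 1.31 and 1.72 CPM in water 1 to 5. Here too α-KG 1 was the highest and α-KG 2 lowest of the α-KG libraries, and water 3 was the highest water library. Satb1 had 0.64 ± 0.20 (edgeR adjusted p = 0.0835).

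**Figure D5:**
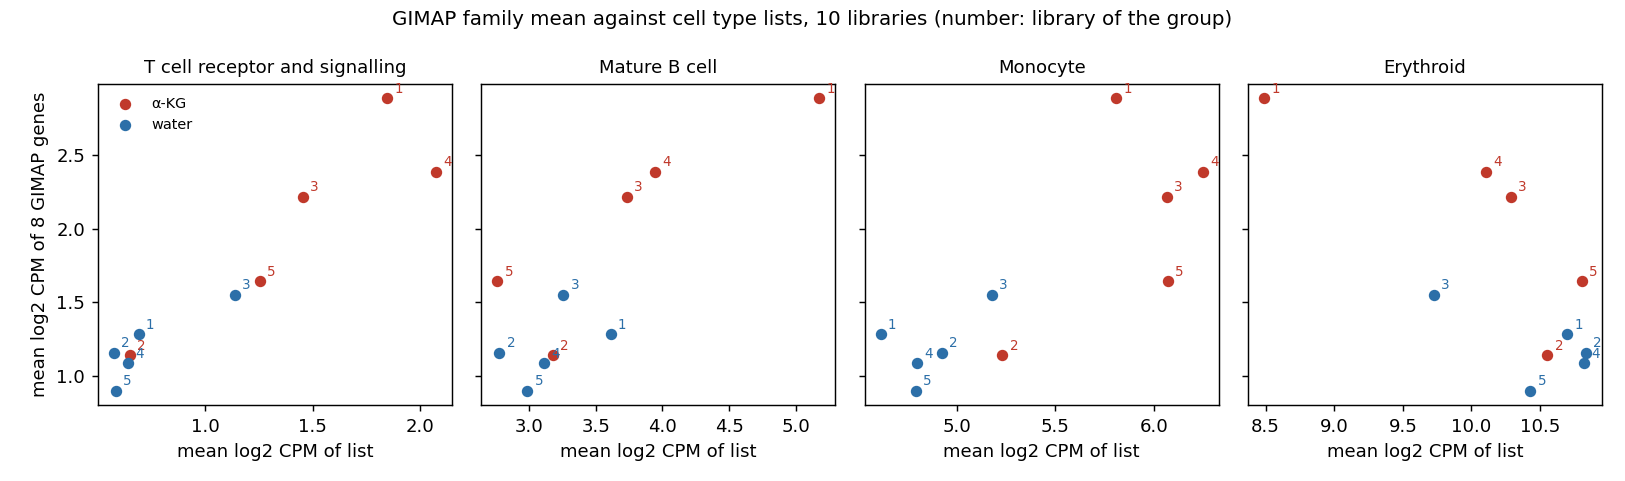
Mean log2 CPM of the 8 GIMAP genes (y axis) against the mean log2 CPM of the T cell receptor, mature B cell, monocyte and erythroid lists (x axis, a panel each) in the 10 libraries, α-KG in red and water in blue, numbered within the group. In the T cell panel the points rise together, α-KG 1 and 4 lie farthest right and α-KG 2 lies among the water libraries, and in the erythroid panel α-KG 1 lies alone at 8.49.

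With the group means removed, the GIMAP family mean correlated with the mean of the T cell receptor list at r = 0.90 (Spearman 0.92, 10 libraries, and r = 0.89 without the 2 libraries farthest from the median). The 2 libraries farthest from the median were found for each list anew and differ between lists. For the T cell transcription factor list r was 0.94 (Spearman 0.93, and r = 0.89 without its 2 farthest libraries). Without α-KG 1, r was 0.93 for the T cell receptor list and 0.91 for the T cell transcription factor list. For mature B cell genes r was 0.83 (0.76 without their 2 farthest, 0.69 without α-KG 1). For erythroid genes it was -0.78 (-0.53 without their 2 farthest, -0.58 without α-KG 1). Without α-KG 1, the mature B cell value lay below those of the macrophage, monocyte and NK lists given next. Lists outside the lymphoid and erythroid lineages were positive as well in most cases. Macrophage genes had r = 0.64 (0.79 without their 2 farthest, 0.77 without α-KG 1), stem and progenitor genes 0.65 (0.70 without their 2 farthest, 0.63 without α-KG 1) and platelet genes 0.68 (-0.15 without their 2 farthest, 0.32 without α-KG 1). Monocyte genes had r = 0.56, which was -0.03 without α-KG 2 and 4 and 0.82 without α-KG 1, so it depended on which libraries were kept. Natural killer (NK) cell genes had 0.49 (0.34 without their 2 farthest, 0.71 without α-KG 1), endothelial genes 0.51 (-0.05 and 0.43), early B cell genes 0.45 (-0.30 and -0.15) and neutrophil genes -0.01 (-0.27 and 0.28). These are descriptions of libraries that share depth and scaling. The family mean minus the T cell receptor list mean was 0.60 ± 0.30 with α-KG and 0.47 ± 0.12 with water on the log2 scale (SD, n = 5 each). Against the T cell transcription factor list the same difference was -1.94 ± 0.23 with α-KG and -2.40 ± 0.14 with water, so the gap between the groups was wider there.

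The summed level of the T cell receptor list was 41.2 to 97.6 CPM in α-KG libraries and 37.4 to 52.7 CPM in water libraries, and no member of that list was at 0 in all libraries. With the mean of that list as a covariate, the median GIMAP log2 fold change was 0.12, with 5 of 8 values above 0, and with the mean of the monocyte list it was -0.01, with 3 of 8 above 0. Both list means differ between the groups themselves, and in both fits edgeR called 0 genes of the whole table, with 608 (T cell) and 158 (monocyte) at an unadjusted p under 0.05. The part of T cell number in the GIMAP difference was not tested.

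Other lymphocyte genes were also mostly higher. Of 14 NK and cytotoxic genes, 14 were above 0 (51.7% of all genes) with a median of 0.89. An unadjusted p under 0.05 was found for 11 (27.8% of all genes), and DESeq2 called 8 (6.07% of all genes higher). In edgeR 1 rose (2.39% of all genes were called higher). The gene that rose was Il2rb, a chain of the interleukin-2 and interleukin-15 receptors, with 14.6, 8.49, 11.3, 14.2 and 14 CPM in α-KG 1 to 5, against 6.03, 6.90, 9.63, 6.80 and 6.94 CPM in water 1 to 5 (log2 fold change 0.78 ± 0.18, SE, edgeR adjusted p = 0.0404). Klrk1 had 0.93 ± 0.25 (edgeR adjusted p = 0.0609), Xcl1 had 1.15 ± 0.32 (adjusted p = 0.0672) and Ncr1 had 0.60 (adjusted p = 0.319).

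Of 13 mature B cell genes, 12 were above 0 (51.7% of all genes) with a median of 0.58, and 0 passed in edgeR. Ms4a1 had 0.58 (edgeR adjusted p = 0.290). Of the 13 genes, 6 had an unadjusted p under 0.05 (27.8% of all genes), and DESeq2 called 3 (6.07% of all genes higher). Their summed level was 636 CPM in α-KG 1, 157 to 273 CPM in the other α-KG libraries and 149 to 244 CPM in water libraries, so α-KG 1 was the highest library in these genes, as it was in the summed GIMAP genes. Its erythroid list mean was the lowest of the 10, 8.49 log2 CPM, against 10.11 to 10.81 in the other α-KG libraries and 9.72 to 10.84 in water libraries. Whether these have a part in the GIMAP values of α-KG 1 was not tested.

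Endothelial genes, a further source of GIMAP transcripts, gave no calls. Of 14 tested, 12 were above 0 (51.7% of all genes) with a median of 0.49, and 0 passed in edgeR or in DESeq2. An unadjusted p under 0.05 was found for 5 (27.8% of all genes), of which 4 were higher with α-KG. Cdh5, which encodes the junction protein VE-cadherin, had 1.90 ± 0.393 CPM with α-KG and 1.76 ± 0.397 CPM with water (SD, n = 5 each), a log2 fold change of 0.14 ± 0.22 (edgeR adjusted p = 0.702). Pecam1 had 0.59 ± 0.25 (edgeR adjusted p = 0.151), Stab2 had 0.64 (adjusted p = 0.126), Egfl7 had 0.53 (adjusted p = 0.144) and Sox18 had 1.2 ± 0.50 (adjusted p = 0.148). Vwf went the other way, with 30.5 ± 6.88 CPM with α-KG and 39.2 ± 4.70 CPM with water. Its log2 fold change was -0.36 ± 0.16 (edgeR adjusted p = 0.156), and Eng had -0.14 (adjusted p = 0.715). The summed level of the list, Vwf included, was 75.7 to 94.6 CPM in α-KG libraries and 73.1 to 98.9 CPM in water libraries. The mean log2 CPM of the list was 1.54 ± 0.362 with α-KG and 1.19 ± 0.202 with water.

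Among myeloid markers, all monocyte and macrophage genes tested were above 0 and some passed the test, and no neutrophil gene passed. Of 12 monocyte genes, 12 were above 0 (51.7% of all genes) with a median log2 fold change of 1.16. In edgeR 9 rose (2.39% of all genes were called higher). Of 12 macrophage genes, 12 were above 0 with a median of 1.07, and 5 rose. In each of these lists 12 genes had an unadjusted p under 0.05 (27.8% of all genes). DESeq2 called 10 in each (6.07% of all genes higher). Their summed levels lay at 1105 to 2116 CPM in α-KG libraries and 842 to 1039 CPM in water libraries for monocyte genes. For macrophage genes they were 105 to 188 CPM in α-KG libraries and 50.2 to 99.6 CPM in water libraries. Neutrophil genes had a median of 0.03, with 0 calls in edgeR and in DESeq2 and 0 of 13 at an unadjusted p under 0.05. Of 8 stem and progenitor genes, 8 were above 0 (51.7% of all genes) with a median of 0.31. In edgeR 1, Gata2, rose (2.39% of all genes were called higher), and 2 had an unadjusted p under 0.05 (27.8% of all genes). Early B cell genes (6 tested, median 0.17), erythroid genes (11, median -0.52) and platelet genes (9, median 0.27) gave 0 calls in edgeR. In that order, 0, 1 and 3 genes had an unadjusted p under 0.05 (27.8% of all genes), of which 0, 0 and 2 were higher with α-KG. DESeq2 called 0, 0 and 2 of them (6.07% of all genes higher). The next counts cover all these lists and also the genes linked to GIMAP proteins by function, described below. Without α-KG 1, 11 of these genes passed, without α-KG 2, 61 passed, and 19 passed with all libraries. In the same fits edgeR called 139, 2683 and 413 genes of the whole table, in that order. Cd3e, Bcl11b and Il2rb each kept their call in 2 of the 10 fits that leave out a library, and without α-KG 1 their log2 fold changes were 1.05, 1.15 and 0.71 in that order. With all 10 libraries, Cd3e and Bcl11b missed the threshold under DESeq2's size factors in edgeR (adjusted p = 0.0510 for Cd3e and 0.0514 for Bcl11b), under protein-coding scaling (0.0520 and 0.0540) and under voom (0.0563 and 0.0658), and Il2rb missed it under voom (0.0563). DESeq2 itself called these 3 genes. Under DESeq2's size factors and under protein-coding scaling, 16 list genes passed.

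Genes that GIMAP proteins are linked to by function were mostly even between the groups. Of 15 tested genes of the BCL2 family, the GABARAP and LC3 autophagy proteins and the GSK3 and β-catenin pathway, 7 were above 0, with a median of -0.01. In edgeR 1 rose (2.39% of all genes were called higher). That was Bcl2, the survival gene of lymphocytes, with 23.5, 11.3, 22.1, 20.7 and 15.8 CPM in α-KG 1 to 5, against 7.48, 10.2, 10.6, 7.13 and 7.22 CPM in water 1 to 5. The groups did not overlap, though α-KG 2 lay close to water 3. Its means were 18.7 ± 5.04 CPM with α-KG and 8.53 ± 1.72 CPM with water (SD, n = 5 each), a log2 fold change of 1.13 ± 0.20 (edgeR adjusted p = 0.0234). Bcl2 kept its call in 4 of the 10 fits that leave out a library, with 1.02 without α-KG 1. Gabarapl1, an autophagy protein of the family that GIMAP6 binds, had -0.42 ± 0.16 (edgeR adjusted p = 0.124) and Gsk3a had -0.33 ± 0.16 (adjusted p = 0.184).

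The genes whose levels followed the GIMAP family most closely were ranked by the correlation with the family mean over the 10 libraries, group means removed, among 13219 genes. The nearest were Eml4 (r = 0.985), a microtubule-binding protein, Macf1 (0.981), which links actin and microtubules, and Camk2d (0.979), a calcium-dependent kinase. Elf4 (0.978), a transcription factor of the ETS family, Nr4a1 (0.978), an orphan nuclear receptor induced by antigen receptor signals, and Il2rg (0.977), the common cytokine receptor chain, came next. Sfi1 (0.975) and Inpp5f (0.972), a phosphoinositide phosphatase, closed the 8. In all, 178 genes, 1.35% of those compared, had r of 0.9 or more, and the median was -0.02. In each of these 8 genes α-KG 1 was the highest library, as it was in 17.8% of all genes. The ranking itself favours such genes, because α-KG 1 was also the highest library in the family mean. Without α-KG 1 their r was 0.95 to 0.975, and their ranks ran from 3 (Eml4) to 35 (Inpp5f). Macf1, Nr4a1, Il2rg, Sfi1 and Inpp5f then fell outside the first 8. Camk2d and Nr4a1 were past the threshold. Camk2d rose by 1.32 ± 0.22 (SE, n = 5 per group, edgeR adjusted p = 0.0172), with 17.8 to 46.6 CPM in α-KG libraries and 11 to 15.7 CPM in water libraries. Nr4a1 rose by 0.75 ± 0.17 (edgeR adjusted p = 0.0404), with 67.1 to 123.0 CPM in α-KG libraries and 49.0 to 67.9 CPM in water libraries.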

How the data were processed

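Total RNA of bone marrow cells was sequenced on an Illumina instrument, per the labels' protocols, and the submitters' processing notes name bcl2fastq, DRAGEN and the build GRCm38, without versions or roles. The deposited table holds the authors' expected counts (estimated counts per gene), and 10.3% of its values are not whole. No source used here names the quantifier, the annotation release or the strand setting. The GIMAP genes and all marker lists were chosen with earlier results of these data known.

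Counts were rounded and filtered with filterByExpr of edgeR 4.0.16 (minimum count 10, minimum total 15), which kept 15126 of the 32256 genes above 0 in some library. All 10 libraries entered the fit (TMM scaling, quasi-likelihood F test, two-sided, Benjamini-Hochberg adjustment over all genes, threshold 0.05) in R 4.3.3. Standard errors were taken as |log2 fold change| over the root of the F statistic, and CPM values are TMM-scaled with a prior count of 2 on the log2 scale. The steps were tested on simulated data. Alternatives were DESeq2 1.42.0, limma 3.58.1 (voom), other scalings, no filter, marker list means as covariates, and fits that omit a library each. SciPy 1.17.1 gave the permutation tests. Gene positions and exon lengths came from GENCODE M21 (53292 of 55367 symbols matched), and promoters from RefSeq.

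Named genes were the 8 members, 5 flanking genes on each side, the 3 genes of smallest unadjusted p in the T cell, NK, endothelial and BCL2 lists, the 8 genes most like the family and 8 fixed markers. Vwf and Eng are named besides, as the endothelial genes below 0. Flanking genes without counts and some list genes are given only in counts, and 1 gene is not reported here.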

Additional observations from a re-analysis of the deposited data

Results flagged for a closer look

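The values of 41 named genes were checked within each group of 5 libraries, 82 groups in all, for a library whose gap to its nearest neighbour was large for the group's range. In 5 groups a library stood apart in this way, and chance alone gives about 1 in 20. Gimap6 was the only GIMAP gene among them, with 18.7 CPM in water 3 and 9.23 to 10.6 CPM in the other water libraries. Water 3 also stood apart in Il2rb, with 9.63 CPM against 6.03 to 6.94 CPM, and in Gsk3a, with 43.6 CPM against 55.8 to 59.2 CPM in the other water libraries. Cd8b1 was at 5.04 CPM in α-KG 4 and at 0.296 to 1.44 CPM in the other α-KG libraries. Tmem176a was at 6.55 CPM in α-KG 3 and at 4.75 to 5.25 CPM in the other α-KG libraries.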

How the results depend on the processing

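No paired analysis was possible because titles in the α-KG and water groups share no replicate number and nothing else matches their samples. Over the 16 alternatives without a covariate, each of the 8 GIMAP log2 fold changes stayed above 0, and their median was 0.94 to 1.15 with all libraries and 0.69 to 1.28 with each library left out. With the T cell list mean as a covariate the median was 0.12, and with the monocyte list mean it was -0.0099. GIMAP genes past the threshold, 2 of 8, became 0 under DESeq2's size factors in edgeR, protein-coding scaling, voom and both covariates, 1 without the filter, 3 under DESeq2, and 0 to 7 with a library left out (7 without α-KG 2, 1 without water 3, otherwise 0). List genes called (19) became 39 under DESeq2, 16 under DESeq2's size factors and protein-coding scaling, 12 under voom, 0 with either covariate and 0 to 61 with a library left out. Flanking genes called (1) became 2 under DESeq2, 0 under DESeq2's size factors, protein-coding scaling, voom and both covariates, and 0 to 2 with a library left out. Calls over all genes (413) became 1657 under DESeq2, 273 under voom, 0 with either covariate and 0 to 2683 with a library left out. Neighbouring levels past the test (5 of 7) became 3 with the longest transcript as the length, 0 in water libraries alone, where the smallest possible p was 0.0625, and 4 to 5 with a library left out. Of the 8 genes most like the family, 5 were again among the top 8 without removing group means, and 1 to 6 with a library left out.

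With the T cell covariate, Repin1 (-0.15) and Pecam1 (-0.16) turned in sign. With the monocyte covariate, Gimap4 (-0.019), Thy1 (-0.22), Cd8b1 (-1.53), Il2rb (-0.0076), Klrk1 (-0.32), Egfl7 (-0.12), Gsk3a (0.0087), Repin1 (-0.14), Tmem176b (-0.061), Ptprc (-0.075), Cd4 (-0.038), Cd8a (-0.63) and Ncr1 (-0.25) turned. Of the GIMAP genes, Gimap8 (-0.29), Gimap9 (-0.43) and Gimap6 (-0.070) were also below 0 with the T cell covariate, and Gimap8 (-0.38), Gimap9 (-0.48), Gimap3 (-0.020) and Gimap6 (-0.00044) with the monocyte covariate. The cause was not tested. No other gene of the 41 checked turned in sign under these alternatives. At 6 to 49 counts a library for Gimap7 and 11 to 44 for Gimap9, depth limits those values most, and the Gimap9 difference was smaller than its error.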
